A study of Zea mays with 9 samples.

Results

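The comparison of far-red light supplied by diodes with a weed-free control is held by 6 of the 9 RNA-seq libraries of the series, 3 per group, in which the second leaves of maize seedlings of the hybrid CG108 × CG102 were collected at 9 days. Leaves of 3 plants were pooled for each library. Seedlings of the artificial group stood under added far-red lamps, which lowered the ratio of red to far-red light (R:FR) to about 0.6, and those of the weed-free group stood at about 1.5, as the labels give them. The study's text gives a higher ratio for the control and a lower one for the artificial group, and which applies to these libraries was not settled. The study's methods give the same range of growth irradiance for all treatments. No allele or transgene separates the groups, and a hybrid of 1 cross is the only genotype. The 3 libraries of the biological group, in which weeds reflected far-red light, stayed out of the comparison. Of the 30184 genes of the deposited table, 23450 were tested, namely those whose normalized count (reads divided by 1 size factor per library) reached 10 in 3 or more of the 6 libraries. The reads assigned to genes came to between 22775151 and 33132805 in the weed-free libraries and between 29642168 and 36995731 in the artificial libraries, and 29017 to 29520 genes had at least 1 read in these libraries. Nothing in the labels says that the pools came from separate sowings, so p-values measure the spread between these pools.

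One doubt about the labels stands before every direction given here. The recovered reads of the 6 libraries came to 71.7% to 133.9% of the read totals that the study lists under the same library names. With the names of the weed-free and artificial groups exchanged they came to 97.8% to 98.0%, and in the biological libraries, as named, to 97.5% to 99.1%. Within the deposited files, each column of the table matched the transcript abundance file of its own library best, with a correlation of 0.936 to 0.968 over 16662 genes against at most 0.465 for any other file. The groups were used as deposited, so "rose" and "fell" mean higher or lower in the libraries labelled artificial, and an exchange of the names would turn every direction around.

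Red and far-red light are read by phytochromes, photoreceptors that red light turns active and far-red light turns inactive. Leaves of neighbours absorb red and reflect far-red light, so a low R:FR signals a neighbour before any shading. Active phytochrome holds down phytochrome-interacting factors (PIFs), and when it is turned off these factors promote elongation through auxin, gibberellin and brassinosteroid, largely known from Arabidopsis, while pigment and defence programmes often change with them. The leaf identity of the material was clear: all 13 leaf mesophyll and bundle sheath markers reached the filter, with a summed normalized count of 3126990 to 3390480 in the weed-free and 3091550 to 3709160 in the artificial libraries. The shoot meristem marker KN-1 and both endosperm and embryo markers stayed below the filter, as did 1 of 2 anther markers. Root markers (Bx7, rth3 and zrp4) summed to 3316 to 4380.0 and to 4270.5 to 5683. Bx7 and zrp4 passed the test below. Bx7, by name a benzoxazinoid gene, entered through a name match, so this sum does not measure root cells. Phloem and vascular markers (sut1, cesa10, cesa11 and CesA12) summed to 7293 to 8917 and to 8074 to 8984. All of these passed, and cesa10, cesa11 and CesA12 had log2 differences of -1.16, -1.34 and -1.16. The level sum thus hides changes of single members. The part of these cell types in the results was not tested. In such whole-leaf samples, fewer cells of a type and less RNA per cell cannot be told apart.

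Across all genes, 2341 rose (9.98%) and 2780 fell (11.9%) at an adjusted p under 0.1 in limma, together 21.8% of the genes tested. The falls were larger: their median log2 difference was 0.61 in size against 0.44 for the rises, and 595 genes fell at least 2-fold (2.54%) where 238 rose that much (1.01%). At 1.5-fold or more, 742 rose (3.16%) and 1474 fell (6.29%), and at 4-fold the counts were 25 and 88. An unadjusted p under 0.05 was reached by 30.1% of the genes. The median log2 difference of all genes was 0.01. The first principal component, with 48.5% of the variance, separated the groups, and the second, with 20.1%, separated artificial replicate 2 from artificial replicate 3. The artificial libraries lay further from each other than the weed-free ones, with a mean distance to their own group (root mean square log2 difference over genes) of 0.472 to 0.515 against 0.378 to 0.392. Artificial replicate 1 was the most displaced of the 3 in 49.4% of the genes that rose and 60.6% of those that fell. Among the 2045 tested genes with a name, from which the lists below are drawn, 13.2% rose and 14% fell. The list counts below stand beside these shares, and several lie near them. Without weed-free replicate 1, 2 or 3 the test called 1345, 1062 and 1034 rises, and 1517, 1482 and 1300 falls. Without artificial replicate 1 it called 1013 and 1414.

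**Figure D1:**
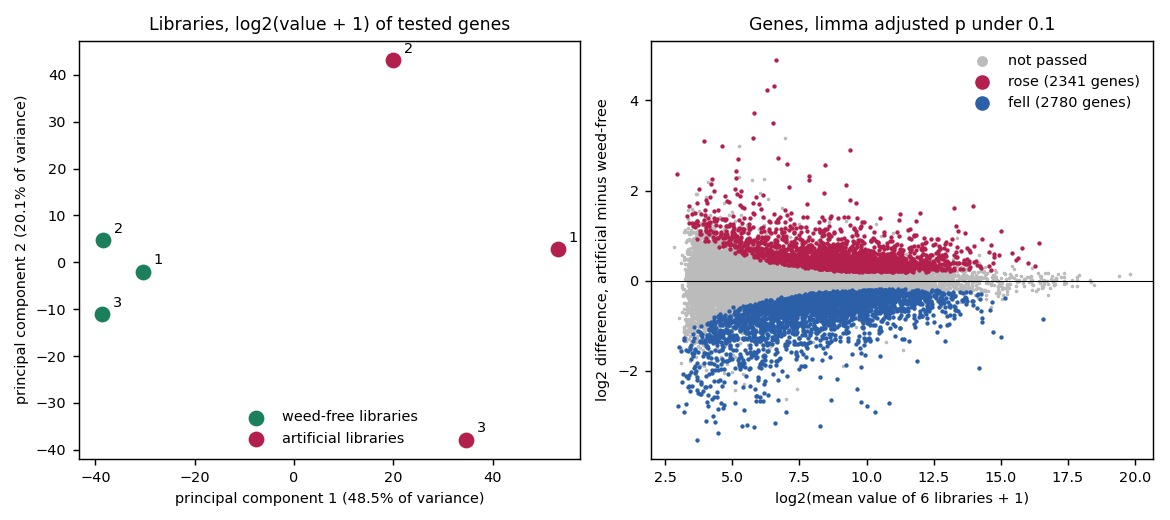
Left, the 6 libraries on the first 2 principal components of log2(normalized count + 1); numbers beside the points are replicates. Right, each tested gene by its mean level and its log2 difference, artificial minus weed-free, with genes that rose (2341) and fell (2780) in colour; the 3 weed-free libraries lie close together, and artificial replicates 2 and 3 are far apart on component 2 (20.1%).

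The largest rise among genes with a name was in a2, which encodes the anthocyanidin synthase of the pigment pathway and lies on chromosome 5 between positions 68086720 and 68088262 of Zm-B73-REFERENCE-NAM-5.0. Its normalized count was 1.79, 1.28 and 28.4 in the weed-free libraries and 202, 96.7 and 253 in the artificial libraries (log2 difference 4.90 ± 0.866, adjusted p = 0.011, limma; ± gives the standard error of the log2 difference, n = 3 per group, throughout). Weed-free replicate 3 stood above the other 2 controls, and still below every artificial library. rca3, a gene for rubisco activase, the chaperone that frees rubisco of bound inhibitors, showed the tightest separation of these, 122, 83.1 and 92.9 in the weed-free libraries and 726, 538 and 523 in the artificial libraries (log2 difference 2.58 ± 0.174, adjusted p = 0.00081, limma). PR-1, a secreted protein of pathogen responses, measured 69.8, 74.1 and 64.4 against 346, 204 and 625 (log2 difference 2.33 ± 0.331, adjusted p = 0.0065, limma). The 3 artificial values of PR-1 differ widely among themselves and are all above the controls. wip1, a wound-induced proteinase inhibitor, counted 17.9, 1.28 and 13.3 in the weed-free libraries and 86.7, 27.9 and 175 in the artificial libraries (log2 difference 3.17 ± 0.849, adjusted p = 0.043, limma). prf1, which encodes the actin-binding protein profilin and is below the mean level asked of the genes chosen for size, counted 1.79, 3.83 and 8.53 against 61.3, 20.9 and 45.2 (log2 difference 2.98 ± 0.548, adjusted p = 0.013, limma). GB1 rose by 1.48 (adjusted p = 0.0053) and LOL3, of the LSD1-like zinc finger family, by 1.11 (adjusted p = 0.0025), in limma. Lack of overlap between groups was a condition for genes chosen by size or smallest p, here and among the falls. LOC100125656, for which RefSeq gives no name, had the smallest p of the rises beside LOC100280972, and measured 7629, 7343 and 8083 against 26778, 24805 and 21228 (log2 difference 1.65 ± 0.10, adjusted p = 0.00063, limma). With 1 library left out, the call was lost, at the log2 differences in parentheses, without weed-free replicate 2 or artificial replicate 1 for wip1 (2.22 to 3.07). With the call kept, the fold change moved by over 1.5 times for a2 (log2 difference 4.24 without weed-free replicate 2 and 6.09 without weed-free replicate 3) and wip1 (log2 difference 3.87 without artificial replicate 2 and 2.57 without artificial replicate 3).

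The largest fall among named genes was in msh1, at 1534, 1504 and 2384 in the weed-free libraries and 177, 251 and 381 in the artificial libraries (log2 difference -2.78 ± 0.267, adjusted p = 0.0025, limma). No weed-free library came near any artificial one. gar2 counted 876, 723 and 2927 against 56.5, 260.2 and 462 (log2 difference -2.69 ± 0.738, adjusted p = 0.046, limma), and its weed-free replicate 3 was far above the other controls. TIP4-1, a water channel of the vacuolar membrane, counted 2607, 4135 and 2235 against 299.9, 1493 and 188 (log2 difference -2.72 ± 0.634, adjusted p = 0.028, limma). Artificial replicate 2 kept the highest TIP4-1 level of the 3 treated libraries by a wide margin. The same library was the high one for thi2, an enzyme that makes the thiazole part of thiamine, at 24643, 35215 and 24659 in the weed-free libraries and 5498, 17685 and 3968 in the artificial libraries (log2 difference -1.93 ± 0.458, adjusted p = 0.029, limma). TAZ1 fell by 1.36 (adjusted p = 0.0025) on the log2 scale, PAPc, a purple acid phosphatase, by 1.41 (adjusted p = 0.016), and fsd1, the iron superoxide dismutase of plastids, by 1.37 (adjusted p = 0.005), in limma. PP2C14, a protein phosphatase of class 2C, counted 221, 294 and 191 against 59.4, 38.9 and 173 (log2 difference -1.64 ± 0.455, adjusted p = 0.048, limma). Leaving out 1 library ended the call (log2 difference then in parentheses) without weed-free replicate 3 for gar2 (-2.06), without weed-free replicate 2 for TIP4-1 (-2.46), and without weed-free replicate 2 or artificial replicate 1 for thi2 (-1.76 to -1.73). The same happened without weed-free replicate 1, 2 or 3 or artificial replicate 1 for PP2C14 (-1.77 to -1.47). The fold change moved by over 1.5 times, with the call kept, for gar2 (log2 difference -1.82 without artificial replicate 1 and -3.33 without artificial replicate 3), TIP4-1 (log2 difference -3.60 without artificial replicate 2 and -2.11 without artificial replicate 3) and thi2 (log2 difference -2.57 without artificial replicate 2). A move of the fold change by over 1.5 times that kept the call was seen for PP2C14 (log2 difference -2.25 without artificial replicate 3).

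**Figure D2:**
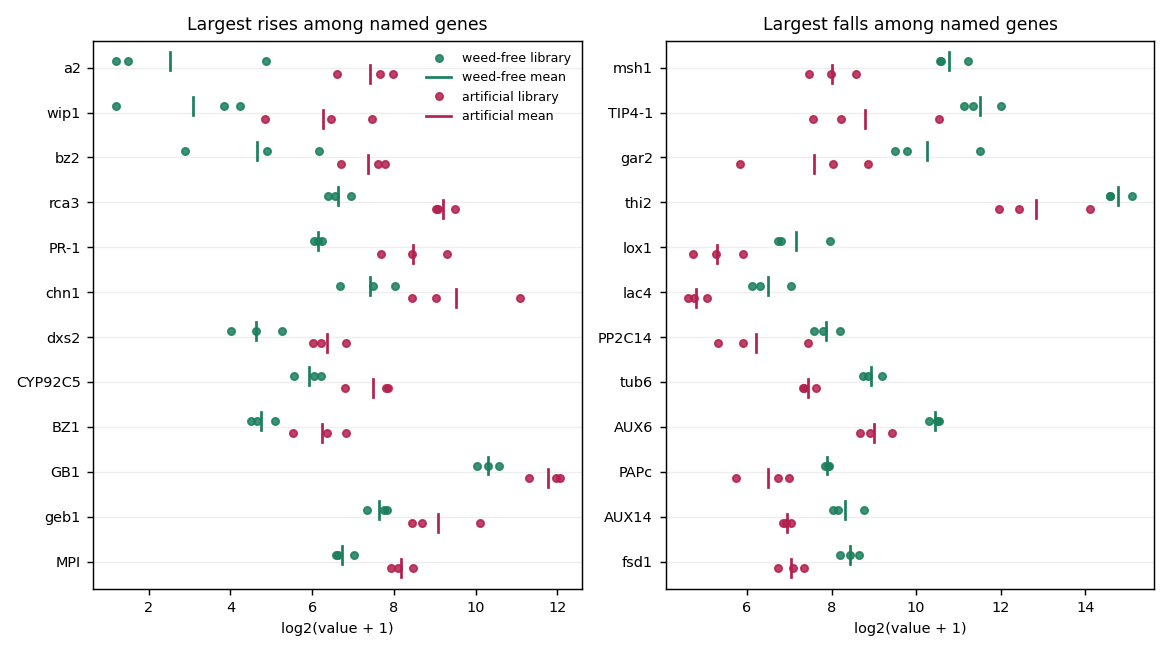
Level of the 12 named genes with the largest rises (left) and falls (right) as log2(normalized count + 1) in each library; points are libraries and vertical bars group means. Lack of overlap between groups was a condition for a gene to be shown. The groups of a2 differ by 4.90 and those of msh1 by -2.78.

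Of the 5 photoreceptor genes tested, 2 rose and 0 fell. None had an unadjusted p under 0.05 in the downward direction, and edgeR and DESeq2 also called 0 falls. PHYB, the main phytochrome of R:FR sensing, counted 779.8, 676 and 721 in the weed-free libraries and 1126, 871 and 912 in the artificial libraries (log2 difference 0.41 ± 0.109, adjusted p = 0.042, limma). phot1, a blue-light receptor of phototropism, counted 7577, 7550.0 and 7487 against 10005, 10396 and 7794 (log2 difference 0.31 ± 0.109, adjusted p = 0.097, limma), with artificial replicate 3 close to the controls. PHYB and phot1 were thus modestly higher, while the other phytochrome genes had log2 differences of -0.23 for PhyB2, -0.05 for phyA2 and -0.33 for PHYC, with adjusted p of 0.49, 0.82 and 0.31 in limma. elm1, which makes the phytochrome chromophore, measured 371, 385 and 352 against 319, 293 and 305 (log2 difference -0.27 ± 0.09, adjusted p = 0.081, limma). Among 12 light-signalling, clock and CONSTANS-like genes, 2 rose and 3 fell. PIF5, a factor that active phytochrome removes, counted 922, 823 and 939 in the weed-free libraries and 1525, 1245 and 1344 in the artificial libraries (log2 difference 0.61 ± 0.095, adjusted p = 0.0082, limma). COL8, of the CONSTANS-like family, rose by 0.53 (adjusted p = 0.012). Both rises were without overlap between groups, as were 2260 of the 2341 rises over all genes. Called or not, 17.9% of all genes tested had every artificial library above every weed-free one. PRR59, a pseudo-response regulator of the clock family, counted 747, 965 and 765 against 456, 774 and 341 (log2 difference -0.73 ± 0.254, adjusted p = 0.091, limma), and bHLH165 fell by 0.61 (adjusted p = 0.049). PIF4 was near the filter, with 3.89 to 16.9 in the 6 libraries, and GI, a clock gene, had a log2 difference of -0.26 (adjusted p = 0.22, limma). Calls that ended on leaving out 1 library did so without weed-free replicate 2 or 3 or artificial replicate 1 for PHYB (0.30 to 0.41) and bHLH165 (-0.61 to -0.45), without weed-free replicate 1, 2 or 3 or artificial replicate 1 or 2 for phot1 (0.23 to 0.31), and without weed-free replicate 1, 2 or 3 or artificial replicate 1, 2 or 3 for elm1 (-0.30 to -0.24). It was also so without weed-free replicate 1, 2 or 3 or artificial replicate 1 or 3 for PRR59 (-0.80 to -0.46). With single libraries left out, photoreceptor genes that rose numbered 0 without weed-free replicate 2 or 3 or artificial replicate 1 and 1 without weed-free replicate 1 or artificial replicate 2, and light-signalling and clock genes that fell numbered 0 without weed-free replicate 2 or 3 or artificial replicate 1, 1 without weed-free replicate 1 or artificial replicate 3 and 5 without artificial replicate 2.

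Hormone genes moved in both directions, with single genes rather than whole lists standing out. Of 30 auxin response genes, 2 rose and 7 fell, with a median log2 difference of -0.19. AUX6, one of the Aux/IAA repressors that auxin both induces and degrades, counted 1475, 1439 and 1258 in the weed-free libraries and 405, 479.5 and 692 in the artificial libraries (log2 difference -1.44 ± 0.173, adjusted p = 0.0044, limma). AUX14, of the same family, counted 262, 282 and 438 against 121, 115 and 130.1 (log2 difference -1.38 ± 0.186, adjusted p = 0.0054, limma). The auxin response factors ARF11 and ARF1 went opposite ways, by -0.41 (adjusted p = 0.023) and 0.31 (adjusted p = 0.032). Of 7 auxin synthesis and transport genes, PIN5a alone passed, with a rise of 0.40 (adjusted p = 0.075). Yucca7, of the auxin synthesis family, had a log2 difference of 0.94 (adjusted p = 0.14), and PIN1a one of -0.70 (adjusted p = 0.11), in limma. Yucca6, of the family of Yucca7, went the other way with -0.73 and did not pass. Of the 7 genes, 5 had a log2 difference below 0, with a median of -0.36. In the gibberellin list of 8 genes, eks1, the ent-kaurene synthase early in the pathway, counted 2445, 2359 and 2517 in the weed-free libraries and 5845, 4577 and 4409 in the artificial libraries (log2 difference 1.01 ± 0.107, adjusted p = 0.0031, limma). Dwarf1, the GA 3-oxidase that makes bioactive gibberellin, counted 76.1, 71.6 and 55.9 against 25.3, 28.9 and 55.1 (log2 difference -0.95 ± 0.297, adjusted p = 0.069, limma), and d3, which acts between them, fell by 0.50 (adjusted p = 0.048). Over the list 1 gene rose and 2 fell. an1, which acts in the step before eks1, had a log2 difference of -0.32 (adjusted p = 0.23), Dwarf2 one of -0.95 (adjusted p = 0.18) and GA20 one of 0.22 (adjusted p = 0.63), and the growth repressors D8 and d9 had log2 differences of 0.09 and 0.07 (adjusted p = 0.62 and 0.73). DET2, of brassinosteroid synthesis, was the only one of 4 genes of that pathway to pass, at -0.63 (adjusted p = 0.083). When 1 library was dropped, the test was no longer passed without weed-free replicate 2 for ARF1 (0.26), without weed-free replicate 1, 2 or 3 or artificial replicate 1 or 2 for PIN5a (0.29 to 0.47) and Dwarf1 (-1.08 to -0.74), and without weed-free replicate 1 or 3 for d3 (-0.50 to -0.38). So it was without weed-free replicate 1, 2 or 3 or artificial replicate 2 or 3 for DET2 (-0.73 to -0.46). In fits without 1 library, auxin response genes that fell numbered 3 without weed-free replicate 2 or 3 or artificial replicate 1 and 4 without weed-free replicate 1, and auxin response genes that rose numbered 0 without weed-free replicate 2 and 1 without weed-free replicate 1 or 3 or artificial replicate 1 or 3.

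Across the named genes tested, 13.2% rose and 14% fell. Of 29 cytokinin genes, 6 rose and 2 fell, with a median log2 difference of 0.09. CKX10, which degrades the hormone, counted 2065, 1915 and 1453 in the weed-free libraries and 6051, 3084 and 3154 in the artificial libraries (log2 difference 1.12 ± 0.245, adjusted p = 0.022, limma), and cko3, of the same family, counted 726, 565 and 661 against 1322, 866 and 857 (log2 difference 0.62 ± 0.169, adjusted p = 0.046, limma). The other 4 oxidase genes did not pass, with log2 differences of -0.60 for CKX4, -0.14 for CKX6, -0.08 for cko2 and 0.26 for CKX12. RR5 and RR4, response regulators that cytokinin induces, fell by 0.76 (adjusted p = 0.094) and 0.51 (adjusted p = 0.065). The cytokinin receptor hk3 rose by 0.50 (adjusted p = 0.048). ACO31, an ACC oxidase that makes ethylene, rose by 0.66 (adjusted p = 0.024), the only one of 5 ethylene genes that passed. Of 17 abscisic acid genes 3 rose, all PYL receptors, and 0 fell, with 0 falls also at an unadjusted p under 0.05 and by edgeR and DESeq2. PYL5 counted 114, 90.7 and 88.1 in the weed-free libraries and 238, 316 and 137 in the artificial libraries (log2 difference 1.16 ± 0.271, adjusted p = 0.028, limma), PYL2 rose by 0.47 (adjusted p = 0.041) and PYL10 (LOC100274679) by 0.38 (adjusted p = 0.015). Of 43 lipoxygenase and jasmonate genes, 5 rose and 5 fell, near the share of named genes in both directions. lox1, a lipoxygenase, counted 110.1, 106 and 250.1 in the weed-free libraries and 59.4, 37.9 and 25.3 in the artificial libraries (log2 difference -1.87 ± 0.383, adjusted p = 0.019, limma), and lox2 counted 223, 254 and 394 against 147, 117 and 103 (log2 difference -1.21 ± 0.218, adjusted p = 0.012, limma). aos2, the allene oxide synthase of jasmonate synthesis, fell by 0.99 (adjusted p = 0.041), while lox4 rose by 0.41 (adjusted p = 0.031) and lox6 by 0.38 (adjusted p = 0.055). With 1 library left out, the call was lost, at the log2 differences in parentheses, without weed-free replicate 2 or 3 for cko3 (0.52 to 0.63), without weed-free replicate 1, 2 or 3 or artificial replicate 1 for RR5 (-0.78 to -0.40) and RR4 (-0.57 to -0.33), and without weed-free replicate 1 or 2 or artificial replicate 1 for hk3 (0.40 to 0.52). The call likewise ended without weed-free replicate 2 or artificial replicate 1 for PYL2 (0.34 to 0.41), without weed-free replicate 1 or 3 for aos2 (-0.94 to -0.92), and without weed-free replicate 3 for lox4 (0.38). The same happened without weed-free replicate 3 or artificial replicate 1 for lox6 (0.25 to 0.37). On leaving out 1 library, cytokinin genes that rose numbered 1 without weed-free replicate 2 and 2 without weed-free replicate 1 or artificial replicate 1, and cytokinin genes that fell numbered 0 without weed-free replicate 1, 2 or 3 or artificial replicate 1 and 5 without artificial replicate 2. Lipoxygenase and jasmonate genes that rose numbered 0 without weed-free replicate 3, 1 without artificial replicate 1, 2 without weed-free replicate 1 or 2 and 9 without artificial replicate 2, and lipoxygenase and jasmonate genes that fell numbered 2 without weed-free replicate 3, 3 without weed-free replicate 1 or 2 or artificial replicate 1 and 8 without artificial replicate 3.

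Genes for microtubules and the cellulose wall fell together. Of 13 tubulin genes tested, 11 fell and 1 rose, with a median log2 difference of -0.76 against 0.01 over all genes. tub6, a beta-tubulin, counted 429, 463 and 587 in the weed-free libraries and 159.7, 161 and 197 in the artificial libraries (log2 difference -1.50 ± 0.142, adjusted p = 0.0025, limma), and tub5 counted 816, 755 and 1146 against 322, 313 and 431 (log2 difference -1.34 ± 0.174, adjusted p = 0.0052, limma). tua5, an alpha-tubulin, fell by 0.77 (adjusted p = 0.0042). tua3 was the exception, with 5859, 5909 and 5758 against 7176, 7209.7 and 6340.3 (log2 difference 0.24 ± 0.076, adjusted p = 0.073, limma). Of 19 cellulose synthase and COBRA-like genes, 13 fell and 3 rose, with a median of -0.69. cesa11 and cesa10 encode the synthases of secondary walls. cesa11 counted 442, 586 and 725 in the weed-free libraries and 229, 179 and 282 in the artificial libraries (log2 difference -1.34 ± 0.203, adjusted p = 0.0077, limma), and cesa10 counted 348, 348 and 489 against 172, 144 and 211 (log2 difference -1.16 ± 0.177, adjusted p = 0.0077, limma). bk2, the COBRA-like protein whose loss makes maize stalks brittle, fell by 0.69 (adjusted p = 0.0074). CesA-3 and Bk2L8 went the other way, with 0.36 (adjusted p = 0.019) and 0.53 (adjusted p = 0.029), as did Bk2L6 with 0.68 (adjusted p = 0.085). Of 14 lignin genes, 6 fell and 1 rose. lac4, a laccase that couples lignin monomers, counted 68.9, 77.9 and 129.8 in the weed-free libraries and 23.4, 25.9 and 32.1 in the artificial libraries (log2 difference -1.68 ± 0.266, adjusted p = 0.0084, limma), ccoaomt1, a methyltransferase of monolignol synthesis, fell by 0.73 (adjusted p = 0.0097) and comt, another, by 0.42 (adjusted p = 0.02). cncr1, a cinnamoyl-CoA reductase of the same route, counted 3806, 2921 and 3438 against 4182, 4076 and 6121 (log2 difference 0.48 ± 0.160, adjusted p = 0.08, limma). Enzymes that loosen walls showed no common direction: of 11 expansin and xyloglucan genes, xet1 rose by 0.56 (adjusted p = 0.03) and xth1 fell by 0.80 (adjusted p = 0.03), with a median of 0.04. Leaving out 1 library ended the call (log2 difference then in parentheses) without weed-free replicate 1, 2 or 3 or artificial replicate 1 or 2 for tua3 (0.21 to 0.25), without weed-free replicate 2 or 3 or artificial replicate 1 or 2 for Bk2L6 (0.56 to 0.65), and without weed-free replicate 1, 2 or 3 or artificial replicate 1 or 3 for cncr1 (0.29 to 0.57). It was also so without weed-free replicate 2 or 3 or artificial replicate 1 for xet1 (0.50 to 0.52), and without weed-free replicate 3 for xth1 (-0.65). With single libraries left out, lignin genes that fell numbered 3 without weed-free replicate 1 or 3 or artificial replicate 1.

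Of 36 cytosolic ribosomal protein genes tested, 24 fell and 0 rose (0 at an unadjusted p under 0.05 and 0 in edgeR and DESeq2), with a median log2 difference of -0.42 and a range of -0.67 to 0.26. rps21b counted 333, 308 and 313 in the weed-free libraries and 176, 226 and 201 in the artificial libraries (log2 difference -0.66 ± 0.116, adjusted p = 0.011, limma). rps4 on the locus LOC103644306 counted 916, 859.9 and 1002 against 541, 616 and 643 (log2 difference -0.63 ± 0.095, adjusted p = 0.0077, limma), and a further locus of that name, LOC101027121, fell as well. rpl29, the most abundant of those named, counted 9591, 9932 and 9777 against 6423, 7415 and 7281 (log2 difference -0.48 ± 0.08, adjusted p = 0.0097, limma). Such families hold near-identical copies, between which the counting could split reads, so the value of a single member is uncertain. With the biological libraries added to the fit (all 9 libraries), the ribosomal count went from 24 to 0, and with biological replicate 3 left out of that fit it was 17. Of 11 translation factor genes, 4 fell, all for elongation factor 1-alpha, which brings aminoacyl-tRNA to the ribosome, and 0 rose (0 at an unadjusted p under 0.05, 0 in edgeR and DESeq2). elfa3 counted 3979, 3739.9 and 3852 in the weed-free libraries and 2229, 2709.6 and 2874 in the artificial libraries (log2 difference -0.57 ± 0.098, adjusted p = 0.01, limma), elfa5 fell by 0.53 (adjusted p = 0.012) and elfa2 by 0.40 (adjusted p = 0.044). Of the 3 treated libraries, artificial replicate 1 was the lowest for 34 of the 36 ribosomal genes, and the highest was artificial replicate 3 for 25 and artificial replicate 2 for 10 of them. In fits without 1 library, ribosomal protein genes that fell numbered 11 without weed-free replicate 3 and 15 without weed-free replicate 1 or artificial replicate 1, and translation factors that fell numbered 2 without weed-free replicate 1 or 3 or artificial replicate 1. Calls that ended on leaving out 1 library did so without weed-free replicate 1 or 3 or artificial replicate 1 for elfa2 (-0.38 to -0.29).

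**Figure D3:**
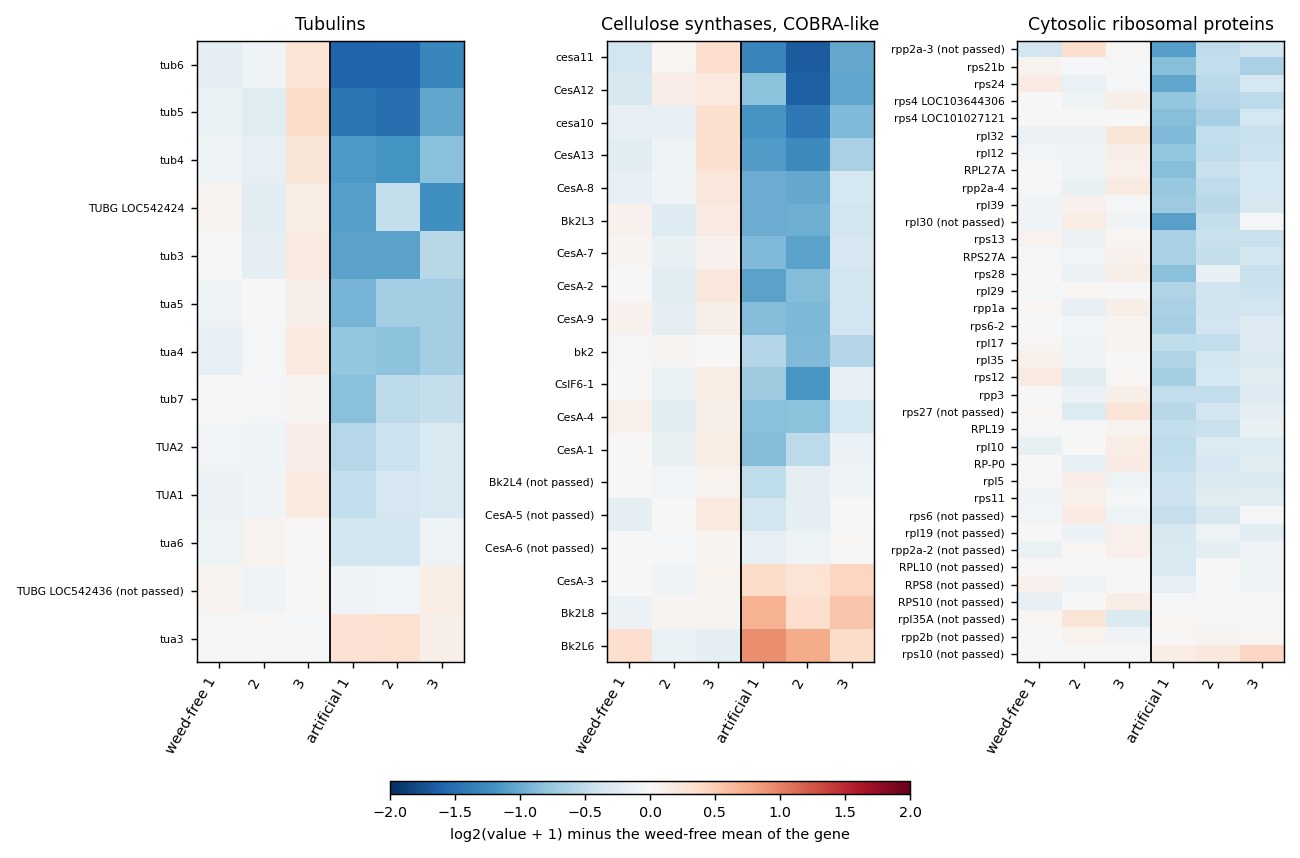
Every tested tubulin, cellulose synthase or COBRA-like, and cytosolic ribosomal protein gene (rows) in the 6 libraries (columns); colour gives log2(normalized count + 1) minus the weed-free mean of the gene, blue for lower. Rows that did not pass are marked; 11 of 13 tubulin, 13 of 19 wall and 24 of 36 ribosomal genes fell.

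Genes of the photosynthetic machinery itself showed no called difference. None of the 9 light-harvesting genes, 15 photosystem and electron transport genes or 14 C4 cycle genes passed in limma. Their log2 differences ran from -0.12 to 0.07, from -0.50 to 0.13 and from -0.24 to 0.34. At an unadjusted p under 0.05 there were 0, 1 and 1 of them, and edgeR and DESeq2 on all 6 libraries also called none. Without artificial replicate 2, 3 photosystem genes fell in limma, and 3 photosystem and 3 light-harvesting genes in edgeR, an alternative chosen after seeing the data. Without artificial replicate 3, 2 C4 genes rose and 1 fell. CAB1, which encodes a chlorophyll a-b binding protein, counted 370853, 376210.5 and 366394 in the weed-free libraries and 318608, 423573 and 303359.7 in the artificial libraries (log2 difference -0.11 ± 0.191). pep1, the phosphoenolpyruvate carboxylase that fixes carbon in C4 leaves, counted 711251, 664052 and 600125 against 695896, 752418 and 679071 (log2 difference 0.11 ± 0.208). Rubisco activase genes did move. Beside rca3, the abundant rca1 counted 42901, 38513 and 45793 against 59246, 65192 and 55385 (log2 difference 0.50 ± 0.114, adjusted p = 0.026, limma). Nuclear genes that express the plastid genome fell often: of 37 tested, 16 fell and 0 rose (0 at an unadjusted p under 0.05 and by edgeR and DESeq2), with a median of -0.23. RH3A, a plastid RNA helicase, counted 2176, 1752 and 1918 in the weed-free libraries and 859, 960.0 and 1046 in the artificial libraries (log2 difference -1.03 ± 0.104, adjusted p = 0.0027, limma). sig3, a sigma factor of the plastid RNA polymerase, counted 2247, 2393 and 2238 against 1032, 1582 and 1022 (log2 difference -0.95 ± 0.154, adjusted p = 0.0088, limma), and prpl35-1, a plastid ribosomal protein, fell by 0.47 (adjusted p = 0.012). Of 15 plastid import, folding and division genes, 6 fell. toc34B and toc34, receptors at the outer envelope, fell by 1.11 (adjusted p = 0.0052) and 0.71 (adjusted p = 0.0082), and hcf106, of the thylakoid translocase, by 0.42 (adjusted p = 0.012). When 1 library was dropped, the test was no longer passed without weed-free replicate 2 for rca1 (0.43). On leaving out 1 library, plastid expression genes that fell numbered 7 without weed-free replicate 1 or artificial replicate 1, 8 without weed-free replicate 3 and 9 without weed-free replicate 2, and plastid import genes that fell numbered 3 without weed-free replicate 1, 2 or 3 or artificial replicate 1.

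**Figure D4:**
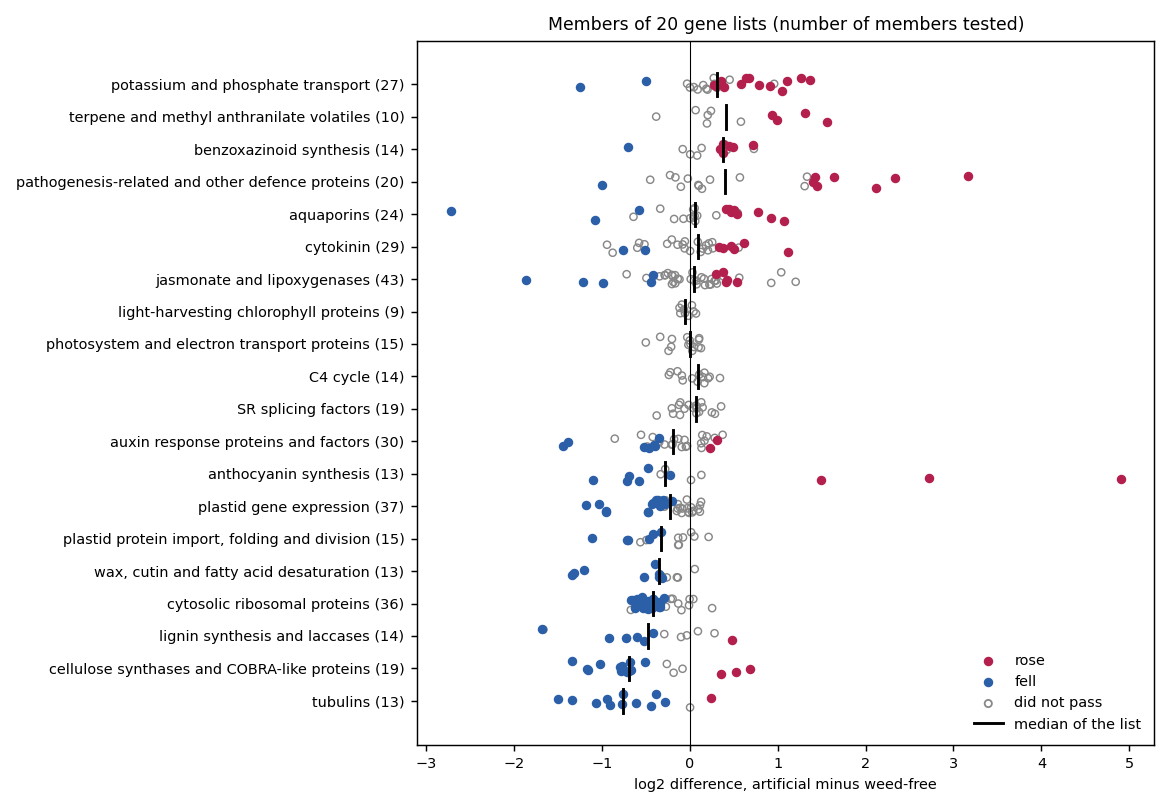
Log2 difference, artificial minus weed-free, of every tested member of 20 gene lists; filled points passed at an adjusted p under 0.1, open points did not, and black bars are list medians. Tubulins (median -0.76) lie lowest and no light-harvesting gene passed.

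Of 13 anthocyanin genes, 3 rose and 6 fell. Beside a2, bz2, a glutathione S-transferase that carries the pigment to the vacuole, counted 28.6, 6.39 and 71.1 in the weed-free libraries and 195, 103 and 219.7 in the artificial libraries (log2 difference 2.72 ± 0.695, adjusted p = 0.037, limma), and BZ1, the glucosyltransferase before it, counted 21.5, 24.3 and 33.2 against 81.8, 44.9 and 113 (log2 difference 1.49 ± 0.336, adjusted p = 0.024, limma). All 3 rises were in genes with few reads in the controls, and artificial replicate 2 was the lowest treated library in each. Among the falls were chi1, the chalcone isomerase of an early step, by 0.47 (adjusted p = 0.027) and a4 by 0.71 (adjusted p = 0.0082). The MYB factor pl1, a regulator of the pathway, counted 199, 209.5 and 212 against 82.8, 79.8 and 132 (log2 difference -1.10 ± 0.192, adjusted p = 0.011, limma). The falls also include LOC606406 on chromosome 9, which RefSeq also names a2. les22, the uroporphyrinogen decarboxylase of chlorophyll synthesis, counted 5011, 4539.7 and 5678 in the weed-free libraries and 2103, 3460.3 and 3298 in the artificial libraries (log2 difference -0.81 ± 0.177, adjusted p = 0.022, limma), and the other 2 chlorophyll synthesis genes, oy1 and DVR, had log2 differences of -0.18 and -0.10 (adjusted p = 0.36 and 0.63). lls1, the pheophorbide oxygenase of chlorophyll breakdown, counted 1868, 1765 and 1912 against 2919, 2827 and 2799 (log2 difference 0.62 ± 0.067, adjusted p = 0.0031, limma), and the breakdown list held 3 rises among 6 genes, with SGR2, of the stay-green family, at 0.49 (adjusted p = 0.087) and the protease gene see2a at 0.36 (adjusted p = 0.057). In the carotenoid list of 16, 2 rose and 5 fell. dxs2 and dxs1 both encode the enzyme that opens the plastid isoprenoid route. dxs2 counted 15.2, 37.1 and 23.7 in the weed-free libraries and 64.3, 72.8 and 113 in the artificial libraries (log2 difference 1.72 ± 0.338, adjusted p = 0.016, limma), and the more abundant dxs1 counted 14891, 12889.5 and 12339.6 against 6382, 10215 and 8984 (log2 difference -0.67 ± 0.161, adjusted p = 0.03, limma). With 1 library left out, the call was lost, at the log2 differences in parentheses, without artificial replicate 1 for bz2 (2.59), without weed-free replicate 1, 2 or 3 or artificial replicate 1 or 3 for SGR2 (0.36 to 0.55), and without weed-free replicate 1, 2 or 3 or artificial replicate 1 for see2a (0.26 to 0.38). So it was without weed-free replicate 1 for dxs1 (-0.59). With the call kept, the fold change moved by over 1.5 times for bz2 (log2 difference 1.83 without weed-free replicate 2 and 3.48 without weed-free replicate 3). With single libraries left out, anthocyanin genes that fell numbered 3 without weed-free replicate 2 or 3 or artificial replicate 1, and carotenoid genes that fell numbered 0 without weed-free replicate 1, 1 without weed-free replicate 3 or artificial replicate 1, 2 without weed-free replicate 2 and 3 without artificial replicate 2 or 3. Chlorophyll breakdown genes that rose numbered 1 without weed-free replicate 1, 2 or 3 or artificial replicate 1, and carotenoid genes that rose numbered 1 without weed-free replicate 1, 2 or 3 or artificial replicate 1 or 3. Chlorophyll synthesis genes that fell numbered 3 without artificial replicate 2.

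Defence genes rose more often than they fell. Of 20 genes for pathogenesis-related and other defence proteins, 7 rose and 1 fell, with a median log2 difference of 0.40. Beside PR-1 and wip1, the proteinase inhibitor MPI counted 97.6, 94.6 and 129 in the weed-free libraries and 244, 271 and 351 in the artificial libraries (log2 difference 1.42 ± 0.173, adjusted p = 0.0045, limma). chn1, a chitinase, counted 178, 102 and 262 against 524, 349 and 2172 (log2 difference 2.12 ± 0.600, adjusted p = 0.051, limma), and geb1, a beta-glucanase, counted 217, 226 and 160.1 against 346, 415 and 1108 (log2 difference 1.44 ± 0.373, adjusted p = 0.038, limma). In chn1, geb1, PR-1 and wip1 artificial replicate 3 was the highest library, most of all in chn1. cc9, a cystatin, rose by 1.64 (adjusted p = 0.038), while cpi2, another cystatin, counted 8845, 10393 and 13604 in the weed-free libraries and 4684, 4741 and 7099 in the artificial libraries (log2 difference -1.0 ± 0.191, adjusted p = 0.015, limma). The volatile list held 4 rises among 10 genes. Its falls were 0 in limma, in edgeR, in DESeq2 and at an unadjusted p under 0.05. AAMT2 and AAMT1, named for anthranilate methyltransferases, which make the odour compound methyl anthranilate, counted 3035, 3037 and 3159 against 6519, 5279 and 5927 (log2 difference 0.94 ± 0.087, adjusted p = 0.0025, limma) and rose by 1.31 (adjusted p = 0.0069). CYP92C5, a cytochrome P450 of homoterpene synthesis, counted 45.7, 72.8 and 64.4 in the weed-free libraries and 224, 111 and 229 in the artificial libraries (log2 difference 1.56 ± 0.292, adjusted p = 0.014, limma). Benzoxazinoid genes, which make the main chemical defence of young maize, gave 6 rises and 1 fall among 14, with a median of 0.38. Called or not, 3 of the 14 had every artificial library above every weed-free one, as 17.9% of all genes tested did. Only 1 of the 6 rises reached 1.5-fold. BX4 counted 11961, 11089 and 10809 against 17468, 15003 and 15188 (log2 difference 0.49 ± 0.09, adjusted p = 0.012, limma), and BX5 and bx9 rose by 0.38 (adjusted p = 0.021) and 0.34 (adjusted p = 0.019). glu2, a beta-glucosidase of the kind that releases the toxin, fell by 0.71 (adjusted p = 0.054). Leaving out 1 library ended the call (log2 difference then in parentheses) without weed-free replicate 1 or 2 for chn1 (1.76 to 2.16), without weed-free replicate 3 for geb1 (1.29), and without weed-free replicate 1 or 2 or artificial replicate 1 for cc9 (1.3 to 1.54). The call likewise ended without weed-free replicate 2 or 3 or artificial replicate 1 for glu2 (-0.78 to -0.50). The fold change moved by over 1.5 times, with the call kept, for chn1 (log2 difference 1.34 without artificial replicate 3). In fits without 1 library, defence genes that rose numbered 3 without weed-free replicate 2 and 4 without weed-free replicate 1, and benzoxazinoid genes that rose numbered 3 without weed-free replicate 3.

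Transporter genes for potassium and phosphate rose more often than they fell. Of 27 tested, 13 rose and 2 fell, with a median log2 difference of 0.31. pht3, a phosphate transporter, counted 375, 279.8 and 346 in the weed-free libraries and 719.6, 664 and 763 in the artificial libraries (log2 difference 1.11 ± 0.119, adjusted p = 0.0031, limma). HKT1, of the high-affinity potassium transporter family, counted 226, 226 and 199.9 against 407, 339 and 379 (log2 difference 0.78 ± 0.108, adjusted p = 0.0059, limma), and HAK18, a potassium transporter, rose by 0.59 (adjusted p = 0.0097). HAK12 and HAK24, of the family of HAK18, fell by 1.25 (adjusted p = 0.031) and 0.49 (adjusted p = 0.035). Aquaporins, the water channels, gave 8 rises and 3 falls among 24. PIP1-5, of the plasma membrane, counted 1161, 898 and 987 in the weed-free libraries and 2565, 1636 and 2306 in the artificial libraries (log2 difference 1.08 ± 0.163, adjusted p = 0.0074, limma), and pip2b rose by 0.77 (adjusted p = 0.0077). NIP2-2, a channel for silicon, counted 3786, 3387 and 4118 against 6950.1, 6909.6 and 7435 (log2 difference 0.92 ± 0.087, adjusted p = 0.0025, limma), while NIP1-1 fell by 1.08 (adjusted p = 0.0074) and TIP4-2 by 0.57 (adjusted p = 0.072). Of 10 genes for iron and other metals, 3 rose and 1 fell. ys1, the transporter of iron bound to phytosiderophores, counted 52.8, 75.4 and 391 in the weed-free libraries and 2216, 332 and 921 in the artificial libraries (log2 difference 2.91 ± 0.797, adjusted p = 0.046, limma). The ys1 groups overlap, as weed-free replicate 3 was above artificial replicate 2. fer1, which encodes the iron store ferritin, counted 6863, 7862 and 4745 against 1409.9, 18319 and 3076 and did not pass (adjusted p = 0.66, limma). Here artificial replicate 2 was the highest of all 6 libraries and artificial replicate 1 the lowest. Nramp1, of the metal transporter family of that name, rose by 0.72 (adjusted p = 0.083) and mtl1 by 0.45 (adjusted p = 0.019), and naat1, of phytosiderophore synthesis, fell by 0.73 (adjusted p = 0.03). aprl1, an enzyme of sulfate reduction, counted 7654, 5572 and 5282 in the weed-free libraries and 11697, 13866 and 17440.3 in the artificial libraries (log2 difference 1.22 ± 0.172, adjusted p = 0.0065, limma), the largest of 3 rises among 16 sulfate and glutathione genes, of which 1 fell. aprl3 rose by 0.23 (adjusted p = 0.074) and sat1, of serine acetylation, by 0.41 (adjusted p = 0.096), and cgs1 fell by 0.21 (adjusted p = 0.075). mha2 and pma1, plasma membrane proton pumps, went opposite ways, by 0.40 (adjusted p = 0.035) and -0.59 (adjusted p = 0.051). Calls that ended on leaving out 1 library did so without weed-free replicate 3 for HAK12 (-1.11), without weed-free replicate 3 or artificial replicate 1 for HAK24 (-0.42 to -0.40), and without weed-free replicate 2 or 3 or artificial replicate 1 or 2 for TIP4-2 (-0.63 to -0.40). The same happened without weed-free replicate 1 or 2 or artificial replicate 1 for ys1 (2.24 to 2.60), without weed-free replicate 1, 2 or 3 or artificial replicate 1 or 3 for Nramp1 (0.50 to 0.75) and sat1 (0.31 to 0.49), and without weed-free replicate 2 for naat1 (-0.70) and mha2 (0.30). It was also so without weed-free replicate 1, 2 or 3 or artificial replicate 1 or 2 for aprl3 (0.20 to 0.24) and cgs1 (-0.24 to -0.18), and without weed-free replicate 1 or 3 for pma1 (-0.59 to -0.51). A move of the fold change by over 1.5 times that kept the call was seen for ys1 (log2 difference 3.78 without weed-free replicate 3 and 3.61 without artificial replicate 2). On leaving out 1 library, potassium and phosphate genes that rose numbered 8 without weed-free replicate 2, and aquaporins that rose numbered 5 without weed-free replicate 2. Aquaporins that fell numbered 1 without weed-free replicate 2 and 5 without artificial replicate 3, and sulfate and glutathione genes that rose numbered 1 without weed-free replicate 1, 2 or 3. Iron and metal genes that rose numbered 1 without weed-free replicate 1 or 2 or artificial replicate 1, and iron and metal genes that fell numbered 0 without weed-free replicate 2 and 3 without artificial replicate 2. Potassium and phosphate genes that fell numbered 0 without weed-free replicate 3 and 1 without artificial replicate 1.

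**Figure D5:**
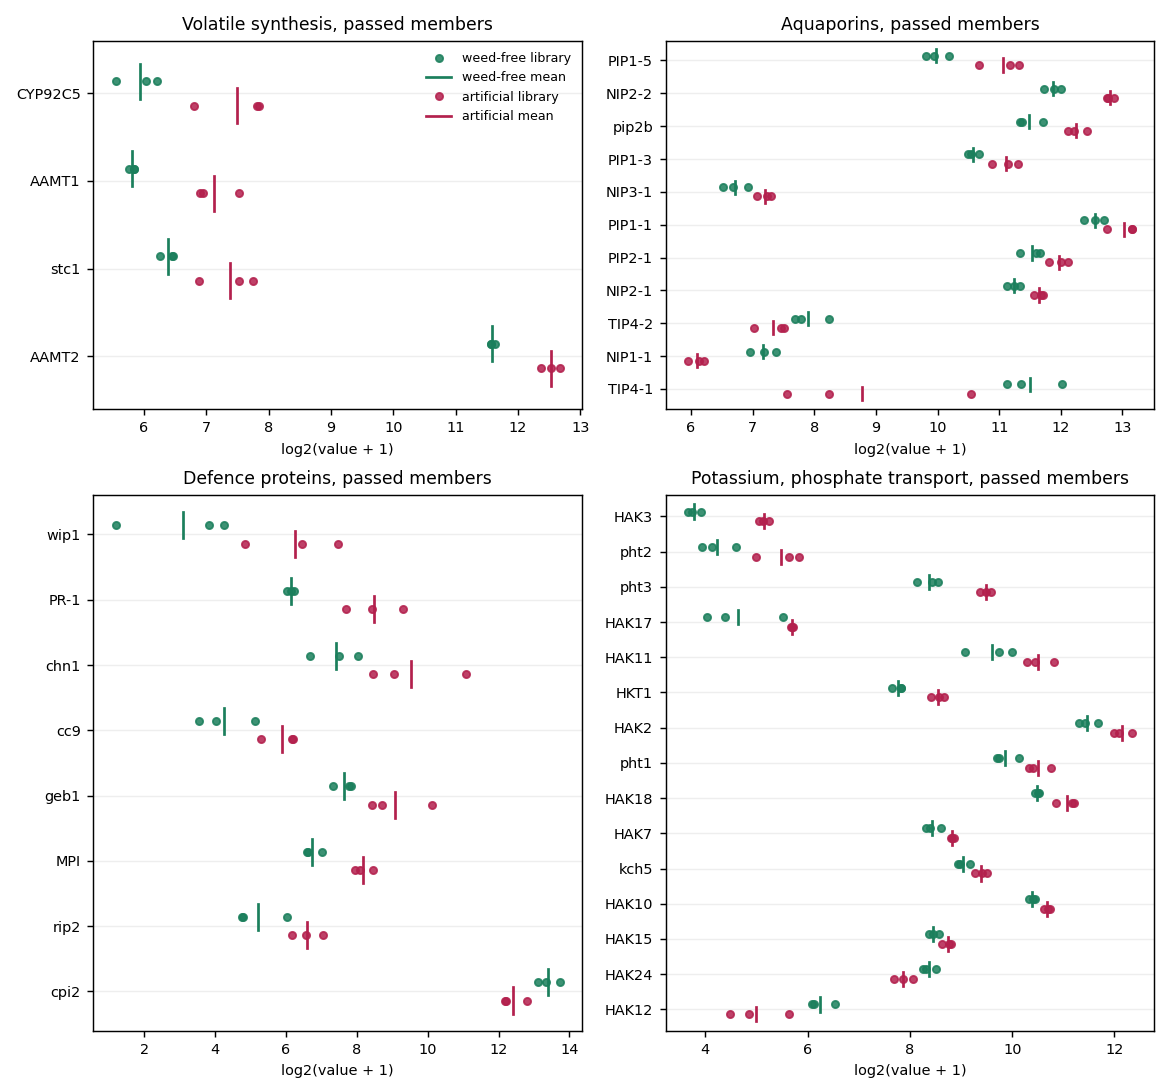
Level of the members that passed in 4 lists, as log2(normalized count + 1) in each library; points are libraries, vertical bars group means. The 4 volatile genes and 7 of the 8 defence genes were higher under artificial light, as were 8 of 11 aquaporins and 13 of 15 transporters.

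Nitrogen genes were a subject of the study, but the list here holds only genes with a RefSeq name and is not the study's set. It gave 2 rises and 4 falls among 16. The study also reported a lower activity of ferredoxin-dependent glutamate synthase, an enzyme measure that was not compared here. NRT1.2, a nitrate transporter, counted 399, 411 and 439.6 in the weed-free libraries and 215, 218 and 277 in the artificial libraries (log2 difference -0.82 ± 0.119, adjusted p = 0.0068, limma). The glutamine synthetase genes, which fix ammonium, divided. GLN6 counted 3009.9, 3192 and 3050.1 against 1757, 1755 and 2310.2 (log2 difference -0.68 ± 0.109, adjusted p = 0.0087, limma), and gln1, the most abundant, counted 42997, 42339.5 and 38529 against 29539, 32891 and 31700.1 (log2 difference -0.40 ± 0.096, adjusted p = 0.031, limma), while gln2 rose by 0.25 (adjusted p = 0.039). AsnS1, an asparagine synthetase, fell by 0.38 (adjusted p = 0.026) and gdh1, a glutamate dehydrogenase, rose by 0.24 (adjusted p = 0.08). NIR, the nitrite reductase, and Nrt1.1 had log2 differences of -0.19 ± 0.115 and 0.19 ± 0.127 (adjusted p = 0.3 and 0.34 in limma), and GLSF, named for a glutamate synthase, had one of 0.26 ± 0.104 (adjusted p = 0.14), and these did not pass. Genes of wax, cutin and fatty acid desaturation fell in 8 of 13 cases and rose in 0 (0 at an unadjusted p under 0.05 and in edgeR and DESeq2), with a median of -0.35. gl4a, an enzyme that lengthens wax fatty acids, counted 1202, 1141 and 1831 in the weed-free libraries and 390.4, 443 and 899 in the artificial libraries (log2 difference -1.34 ± 0.297, adjusted p = 0.023, limma), and the plastid desaturase fad7 counted 15351, 15768 and 15586 against 10184, 11168 and 11219 (log2 difference -0.52 ± 0.077, adjusted p = 0.0073, limma). Beside thi2, the second thiamine gene thi1 counted 119581, 136693 and 113533 against 62143, 101088 and 50082 (log2 difference -0.85 ± 0.234, adjusted p = 0.046, limma), again with artificial replicate 2 the closest to the controls. Of 29 starch and sucrose genes, 5 rose and 2 fell, where 13.2% of the named genes tested rose and 14% fell. GBSSIIa, a starch synthase of leaves, rose by 0.41 (adjusted p = 0.014) and sus2, a sucrose synthase, by 0.91 (adjusted p = 0.037), while sbe3, of the starch branching enzymes, fell by 0.48 (adjusted p = 0.07) and iso3, of the isoamylases, by 0.31 (adjusted p = 0.023). Among 17 enzymes of reactive oxygen 4 rose and 3 fell, of which fsd1 counted 343, 293 and 402 against 105, 136 and 161 and the copper-zinc form sod4 rose by 0.49 (adjusted p = 0.027). Of 22 glutathione S-transferase genes 3 rose and 2 fell, and gst10 fell by 0.84 (adjusted p = 0.0031). When 1 library was dropped, the test was no longer passed without weed-free replicate 1 or 2 or artificial replicate 1 for gln1 (-0.38 to -0.35), without weed-free replicate 2 or 3 for gln2 (0.23 to 0.26), and without weed-free replicate 3 for AsnS1 (-0.33). So it was without weed-free replicate 1 or 3 or artificial replicate 1 or 3 for gdh1 (0.19 to 0.24), without weed-free replicate 1, 2 or 3 or artificial replicate 1 for thi1 (-0.91 to -0.78), and without weed-free replicate 1 or artificial replicate 1 for sus2 (0.77 to 0.79). The call likewise ended without weed-free replicate 1, 2 or 3 or artificial replicate 1 or 3 for sbe3 (-0.51 to -0.35). With single libraries left out, nitrogen genes that rose numbered 0 without weed-free replicate 3 and 1 without weed-free replicate 1 or 2 or artificial replicate 1, and reactive oxygen genes that rose numbered 1 without weed-free replicate 1 or 2 or artificial replicate 1 and 2 without weed-free replicate 3. Reactive oxygen genes that fell numbered 1 without weed-free replicate 1, 2 or 3 or artificial replicate 1 and 5 without artificial replicate 2, and glutathione S-transferase genes that rose numbered 1 without weed-free replicate 1 or 3 and 5 without artificial replicate 2. Wax and fatty acid genes that fell numbered 3 without weed-free replicate 1, 4 without weed-free replicate 3 and 5 without weed-free replicate 2 or artificial replicate 1, and starch and sucrose genes that rose numbered 1 without artificial replicate 1 and 2 without weed-free replicate 1 or 2. Starch and sucrose genes that fell numbered 1 without weed-free replicate 1, 2 or 3 or artificial replicate 1.

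Transcription factor families held both rises and falls. Across the named genes tested 13.2% rose and 14% fell, the share beside which the list counts that follow stand. WRKY104 counted 76.1, 139 and 168 in the weed-free libraries and 48.7, 58.8 and 44.4 in the artificial libraries (log2 difference -1.25 ± 0.279, adjusted p = 0.024, limma) and WRKY53 fell by 1.07 (adjusted p = 0.037), while WRKY1 (LOC100279793) rose by 0.33 (adjusted p = 0.029). The WRKY list gave 2 rises and 5 falls among 16. Among 35 MYB genes 5 rose and 4 fell, near that share. The falls include pl1, Myb39 at -0.78 (adjusted p = 0.038) and MYB30 at -0.93 (adjusted p = 0.051). MYBR41 counted 628, 524 and 573 against 842, 1135 and 906 (log2 difference 0.73 ± 0.122, adjusted p = 0.0095, limma). HB84, a homeobox factor, rose by 0.54 (adjusted p = 0.0059), and Hb2 fell by 0.43 (adjusted p = 0.027). sbp20, of the SBP-box family, counted 22.4, 28.1 and 26.5 against 59.4, 38.9 and 51.3 (log2 difference 0.92 ± 0.237, adjusted p = 0.038, limma), and bHLH53 fell by 1.02 (adjusted p = 0.029). Of 61 chromatin genes, 8 rose and 5 fell, about the share over all genes. mez2, a Polycomb histone methyltransferase, rose by 0.30 (adjusted p = 0.036) in limma. None of the 19 SR splicing factor genes passed in limma, where 2 had an unadjusted p under 0.05, and edgeR and DESeq2 called 0. Of 17 genes for folding in the endoplasmic reticulum 1 rose and 1 fell, and of 18 heat shock genes 2 rose and 1 fell. hsp1, an HSP70 chaperone, counted 259.6, 282 and 194 in the weed-free libraries and 504, 405 and 592 in the artificial libraries (log2 difference 1.03 ± 0.173, adjusted p = 0.0098, limma), the disulfide isomerase pdi12 rose by 0.82 (adjusted p = 0.0031), and the small heat shock protein gene hsp18f fell by 1.25 (adjusted p = 0.012). Of 14 autophagy genes 3 rose, Atg8e by 0.50 (adjusted p = 0.045), and 0 fell, with 0 falls at an unadjusted p under 0.05 and by edgeR and DESeq2. With 1 library left out, the call was lost, at the log2 differences in parentheses, without weed-free replicate 2 or 3 for WRKY53 (-0.96 to -0.92), without weed-free replicate 1 for WRKY1 (0.29), and without weed-free replicate 1 or 2 or artificial replicate 1 for Myb39 (-0.74 to -0.64). The same happened without weed-free replicate 1, 2 or 3 or artificial replicate 1 for MYB30 (-1.02 to -0.64), without weed-free replicate 3 for Hb2 (-0.39), and without weed-free replicate 1 or artificial replicate 1 for sbp20 (0.78 to 0.82). It was also so without weed-free replicate 2 for bHLH53 (-0.97), without weed-free replicate 2 or 3 or artificial replicate 1 for mez2 (0.26 to 0.29), and without weed-free replicate 1, 2 or 3 for Atg8e (0.48 to 0.51). In fits without 1 library, WRKY genes that fell numbered 1 without weed-free replicate 3, 2 without weed-free replicate 1 or artificial replicate 1 and 3 without weed-free replicate 2 or artificial replicate 2, and WRKY genes that rose numbered 0 without weed-free replicate 1, 1 without weed-free replicate 2 or 3 or artificial replicate 1 and 4 without artificial replicate 3. MYB genes that fell numbered 1 without weed-free replicate 1 or 2 or artificial replicate 1 and 2 without weed-free replicate 3, and chromatin genes that rose numbered 0 without weed-free replicate 3, 1 without weed-free replicate 2 or artificial replicate 1, 3 without weed-free replicate 1 and 4 without artificial replicate 3. Chromatin genes that fell numbered 0 without weed-free replicate 1, 2 or 3 or artificial replicate 1, 1 without artificial replicate 2 and 8 without artificial replicate 3, and autophagy genes that rose numbered 0 without weed-free replicate 1 or 3, 1 without weed-free replicate 2 or artificial replicate 1 and 6 without artificial replicate 3. Heat shock genes that rose numbered 1 without weed-free replicate 1, 2 or 3 and 4 without artificial replicate 2, and heat shock genes that fell numbered 2 without artificial replicate 2 or 3. Genes of folding in the endoplasmic reticulum that fell numbered 0 without weed-free replicate 2 or 3 or artificial replicate 1 or 3 and 2 without artificial replicate 2.

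Genes that rose and fell differed in length. The median span was 4190 bases for genes that rose, 3120 for those that fell and 3771 for all genes tested. With a trend over gene length removed, 2724 genes rose and 2398 fell, so that 53.2% of calls were rises in place of 45.7%. Called genes were more abundant than average, with a median of 10.9 TPM (a transcript abundance that corrects for gene length, mean of 6 libraries) for rises, 8.75 for falls and 5.25 for all, and long non-coding RNAs made up 2.39%, 1.87% and 4.15%. Ribosomal RNA genes took at most 0.0219% of the counts in any library. In the fit with the length trend removed, falls went from 24 to 19 for ribosomal and 16 to 11 for plastid expression genes. They went from 7 to 4 for auxin response and 6 to 4 for anthocyanin genes. Cellulose falls stayed at 13, and benzoxazinoid rises went up from 6 to 8. Beyond that fit, the part of these properties in the results was not tested.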

How the data were processed

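RNA from pooled second leaves was sequenced in 9 libraries, of which the 3 artificial and 3 weed-free ones were compared, with groups taken from the labels and no sample column left out (0). Per the labels, the deposited signal values cover 30184 genes as reads divided by 1 DESeq2 size factor per library, and the authors gave files per library whose deposited TPM values sum to 1000000. The submitters' processing notes name Bowtie2 2.4.3, HTSeq 0.13.5 and DESeq2 1.30.1, while the study's methods describe STAR and featureCounts, and which route made the table is not given in the sources used here. Tables of the authors' own comparisons (fold changes, p-values) were not used.

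After log2(value + 1), limma 3.58.1 (variance trend over the mean, no covariates) compared the groups, with Benjamini-Hochberg adjustment over 23450 genes, which reached a value of 10 in 3 or more of the 6 libraries. The threshold was an adjusted p of 0.1. A fold change on this scale understates the change of low genes. In all 6 libraries the values were whole multiples of what 1 read is worth (tolerance 0.01), so reads were recovered for count tests with edgeR 4.0.16 and DESeq2 1.42.0 in R 4.3.3. In artificial replicate 2 that worth is close to 1 (0.997), and its reads were treated as less certain. Its values were whole multiples all the same, with a largest deviation of 2.44e-09 reads. edgeR without this library was added after seeing the data, as was a fit of 8 libraries without biological replicate 3. A depth of 22775151 to 36995731 reads per library puts a value of 10 at about 10 reads.

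Gene names and positions are those of RefSeq for the assembly Zm-B73-REFERENCE-NAM-5.0. It lists 99.7% of the table's genes and 2337 have a name beside a locus number. The table gives no descriptions and no sequences were at hand, so the 53 lists (912 members tested) were built from names, 9 of them added and others widened or corrected at that stage, and promoter motifs were not searched. The members, lists and alternatives were chosen with earlier results of these data known. Genes named are the 12 largest changes per direction among named genes that passed with a mean of at least 50 and no overlap, the 5 with the smallest p under the same conditions, up to 3 called members per list and direction, by adjusted p, all members of lists of up to 8 and the 3 called genes with the highest mean per direction. CAB1, pep1, fer1, GI, PIF4, NIR, Nrt1.1, GLSF, CKX4, CKX6, CKX12 and cko2 were added outside this rule after their values were seen, as were LOC606406 and LOC101027121. Of the 231 genes that the rule selects, some enter only through the counts of their lists, and 1 is not reported here.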

Additional observations from a re-analysis of the deposited data

How the results depend on the processing

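Of the 201 named genes that passed, none reversed under any of the 20 alternatives. The stricter adjusted p and the fold limit use the main fit itself, where no gene can reverse. The other alternatives reuse libraries in which these genes were chosen for passing. The number kept was 201 and 201 at pseudocounts of 0.5 and 5, 194 with TMM, 190 without a filter, 189 with the trend over gene length removed, 187 in edgeR, 178 in edgeR without artificial replicate 2, 177 in DESeq2, 151 on TPM, 146 at an adjusted p under 0.05, 105 at a fold of at least 1.5 and 72 with all 9 libraries in 1 fit. Without weed-free replicate 1, 2 or 3 it was 129, 121 and 117, and without artificial replicate 1, 2 or 3 it was 122, 177 and 175. Genes that rose and fell numbered 1252 and 1679 at an adjusted p under 0.05, 742 and 1474 at a fold of at least 1.5, 1425 and 2060 on TPM and 369 and 765 with all 9 libraries. Leaving out 1 library gave 1013 to 2394 rises and 1300 to 3014 falls. With all 9 libraries the falls went from 24 to 0 for ribosomal, 16 to 4 for plastid expression, 8 to 2 for wax, 6 to 2 for anthocyanin, 6 to 2 for lignin, 7 to 3 for auxin response, 6 to 3 for plastid import, 5 to 1 for jasmonate, 4 to 2 for nitrogen, 5 to 0 for carotenoid and 5 to 0 for chromatin genes, and the rises from 13 to 5 for potassium and phosphate, 8 to 3 for aquaporin, 7 to 3 for defence, 6 to 0 for benzoxazinoid, 6 to 0 for cytokinin, 5 to 0 for jasmonate, 5 to 1 for starch and sucrose, 5 to 1 for MYB, 3 to 0 for autophagy, 2 to 0 for nitrogen and 8 to 0 for chromatin genes, while 8 tubulin and 10 cellulose genes fell. Biological replicate 3 lay at a mean distance of 0.892 from the other libraries, against 0.550 to 0.621 for the rest. With it left out, chosen after seeing the data, 2097 genes rose and 2461 fell, 182 of the 201 passed, and 17 ribosomal, 14 plastid expression, 10 tubulin and 13 cellulose genes fell. At a fold of at least 1.5, 5 ribosomal and 4 plastid expression genes fell. The depth limits statements on genes near a value of 10.

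With the replicate number as a block, 2265 genes rose and 2855 fell, and 187 of the 201 named genes passed. Libraries with the same number correlated at 0.00567, 0.0909 and 0.0970 after group means were removed, not all above 0.1, so the numbers were not taken to pair libraries. The study's methods describe a randomized block layout without tying library numbers to blocks.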
